A study of Mus musculus with 12 samples.

Results

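The neurotrophins are a small family of secreted growth factors, and 6 genes of this family and its receptors were examined in newborn mouse brain with and without the kinase KIS. The genes were chosen by name: the ligands Bdnf and Ntf3, the receptor tyrosine kinases Ntrk2 and Ntrk3, the shared receptor Ngfr and the sorting receptor Sort1. They are 6 of the 17550 gene symbols of the deposited table and hold 131 of its 221417 named main probesets, a probeset being a few short probes in the same exon or the same part of it. Whole-brain total RNA of 12 newborn female mice was measured, each brain on its own Affymetrix Mouse Exon 1.0 ST array. The wildtype group (KIS +/+) and the KIS-ko group (KIS -/-) had 6 brains each, and each of 6 litters gave 1 brain of either genotype. All mice were of a C57BL6/N background, reached by repeated backcrossing, and none was treated. KIS is encoded by Uhmk1 and phosphorylates the splicing factor SF1, and its loss in the KIS-ko animals was not restricted to the brain.

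Neurotrophins are made as precursors, cleaved, and released by neurons and other cells. BDNF acts on TrkB, the product of Ntrk2, and neurotrophin-3 acts mainly on TrkC, the product of Ntrk3. Both Trk receptors exist as forms with a tyrosine kinase and as truncated forms without it, which arise from alternative 3′ exons. The p75 receptor, the product of Ngfr, binds all mature neurotrophins weakly, and together with sortilin, the product of Sort1, it binds their precursors. In the newborn brain these proteins serve neuron survival, axon growth and the first synapses. Bdnf is transcribed from several promoters, each with its own 5′ exon spliced to a shared coding exon, and it is a textbook target of the transcription factor CREB.

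The start regions of the genes are shown first because the 5′ exons of Bdnf are read out separately on these arrays. The RefSeq table of assembly GRCm38.p6 lists 7 start sites for Bdnf, 2 for Ntf3, 1 for Ntrk2 and 1 for Ngfr. Windows of 250 bases upstream of each start were searched on both strands for the whole cAMP response element TGACGTCA, the shorter ACGTCA that forms part of it, and the E-box CACGTG. The whole element was in 0 of these 11 windows (1.55% of all 32851 windows). The shorter element was in 1 window, at the third start of Bdnf, 36 bases upstream of the start (6.47% of all windows). The E-box was in 1 window, at the first start of Ntf3, 231 bases upstream (6.02% of all windows). The windows of the first and of the third Bdnf start, of the first Ntf3 start and of the Ntrk2 start follow, 5′ to 3′ on the gene's strand and in lower case, with the letters of a motif in capitals.
Bdnf, start site 1, chr2:109674450-109674699, plus strand: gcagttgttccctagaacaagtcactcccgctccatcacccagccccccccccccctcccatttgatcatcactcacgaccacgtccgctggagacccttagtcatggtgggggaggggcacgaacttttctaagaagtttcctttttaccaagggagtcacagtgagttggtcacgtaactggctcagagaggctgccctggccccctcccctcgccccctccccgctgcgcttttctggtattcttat
Bdnf, start site 3, chr2:109692186-109692435, plus strand: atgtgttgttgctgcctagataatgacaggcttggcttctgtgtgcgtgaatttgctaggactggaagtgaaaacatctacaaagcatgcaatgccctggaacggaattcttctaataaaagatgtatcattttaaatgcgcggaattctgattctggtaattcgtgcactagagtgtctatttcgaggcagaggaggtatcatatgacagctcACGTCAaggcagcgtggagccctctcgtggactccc
Ntf3, start site 1, chr6:126166745-126166994, minus strand: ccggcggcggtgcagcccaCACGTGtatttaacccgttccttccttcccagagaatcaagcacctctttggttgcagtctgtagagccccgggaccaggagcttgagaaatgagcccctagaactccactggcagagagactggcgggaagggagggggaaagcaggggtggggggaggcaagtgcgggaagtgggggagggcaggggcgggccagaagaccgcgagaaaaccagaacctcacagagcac
Ntrk2, start site 1, chr13:58806319-58806568, plus strand: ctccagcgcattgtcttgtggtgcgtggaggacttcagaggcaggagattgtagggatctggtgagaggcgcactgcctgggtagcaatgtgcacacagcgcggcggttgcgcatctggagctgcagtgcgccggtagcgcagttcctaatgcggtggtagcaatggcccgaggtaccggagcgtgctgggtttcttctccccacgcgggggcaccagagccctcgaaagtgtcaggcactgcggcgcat
A match of letters is a description and not a binding site. The positions of the probesets below are those of the deposited table, whose build is not named in the sources used here, so the windows were not paired with probesets.

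The values are PLIER signals, a linear intensity for each probeset and array, with probesets rejected when their relative standard deviation exceeded 0.4 in either genotype. This left 126 of the 131 probesets (3 of Bdnf and 2 of Sort1 were rejected) and 205469 probesets of 17279 genes in all. A gene value is the mean over the kept probesets of log2(signal + 16), and differences are KIS-ko minus wildtype, from limma with a block for the litter, and p-values were adjusted across all genes by the Benjamini-Hochberg method. The array medians of the deposited signals lay between 478 and 546 (on arrays the number of samples limits the precision). In 5 of 6 litters the KIS-ko array had the lower median, and the mean log2 difference of the medians was -0.058. Over all genes the median difference was -0.036. Centring each array on its median made it 0.018 and a second quantile normalization 0.0021, so differences of this size move with the scaling. Uhmk1 matched the genotype labels, with a lowest wildtype gene value of 10.89 and a highest KIS-ko value of 8.98. The neuron marker list, 10 of 10 genes measured, had a mean gene value between 11.98 and 12.15 on the 12 arrays.

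Detection at birth was judged against 5222 intron control probesets, whose median signal was 114 and whose 95th percentile was 713. Of the 131 probesets, 96 had a mean signal above that percentile. The receptors were the most completely detected of these genes. Ntrk2 was above it with 16 of 17 probesets, Ntrk3 with 18 of 23, Sort1 with 52 of 58 and Ngfr with 5 of 9. Ntf3 was above it with 3 of 7 probesets and Bdnf with 2 of 17, and 9 of the Bdnf probesets were at or below the control median. Signals of different probesets depend on the probes as well as on the RNA, so these counts describe detection and do not rank the genes by abundance.

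None of the 6 genes was called by limma at an adjusted p of 0.05 (0 of 6, and also 0 of 6 at an unadjusted p of 0.05). Over all genes tested, 0.00579% were called, which is Uhmk1 alone, and 6.16% had an unadjusted p under the threshold, 4.34% lower and 1.82% higher in KIS-ko. Of the members, 3 were lower and 3 higher, with a median difference of -0.016 (69.8% of all genes were lower, with a median of -0.036). The 6 wildtype and 6 KIS-ko values overlapped for every member.

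**Figure D1:**
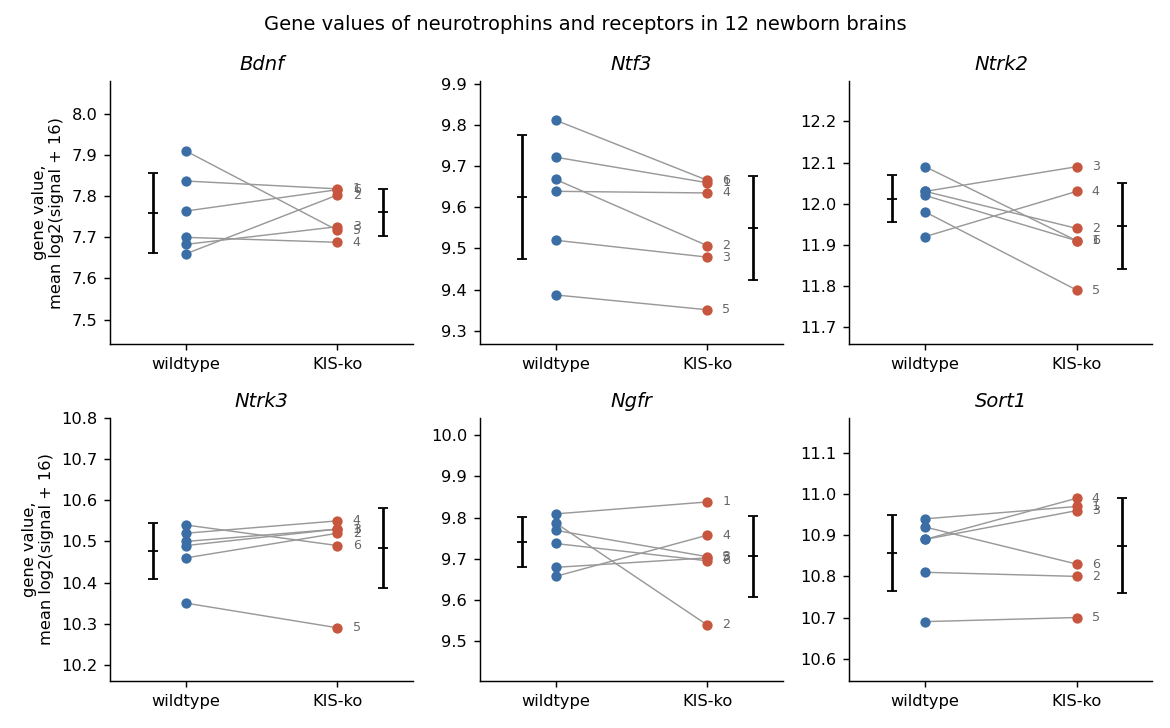
Gene values (mean log2(signal + 16), vertical axis, each panel spanning the same range) of the 6 genes in 6 wildtype (blue) and 6 KIS-ko brains (red). Grey lines join littermates, numbers give the litter, and black bars give mean ± SD. The genotypes overlap in every panel, all 6 Ntf3 lines go down, and the lowest Ntrk3 value is the KIS-ko brain of litter 5 at 10.29.

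Bdnf, the ligand of TrkB, had nearly the same gene value in both genotypes. In wildtype the lowest, median and highest values were 7.66, 7.73 and 7.91, and in KIS-ko they were 7.69, 7.76 and 7.82. The KIS-ko values lay within the wildtype range. The log2 difference was 0.0025 (standard error 0.053, 95% confidence interval -0.115 to 0.12, adjusted p = 0.989 from limma), with 3 litters lower and 3 higher. Because most Bdnf probesets lay in the range of the intron controls, this interval applies to a value built mainly from dim probesets. With probesets at or below the 95th percentile of the controls left out, 2 probesets remained and the difference was 0.204 (standard error 0.0889; limma, adjusted p = 0.748). These are the probesets at 109517283 and 109549751, both described below, and they differed by 0.353 and 0.055.

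The 5′ exons of Bdnf had very unequal signals on all arrays. The brightest Bdnf probeset, on chromosome 2 at 109549751 to 109549777, carries 3 probes in 27 bases, and its signal was 2744 ± 279 in wildtype and 2869 ± 452 in KIS-ko brains (SD, n = 6 each). The probeset next to it in the same listed transcript, at 109549791 to 109549818, had signals of 44.9 ± 10.3 and 40.6 ± 9.47 (SD, n = 6 each). It was brighter than 20.2% of the intron controls only, and the pair thus gives no common reading of this exon. The 3 probesets in the last exon, which holds the coding sequence and the 3′ end, were brighter than 74.1%, 40.2% and 46.9% of the intron controls.

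Both member probesets with an unadjusted p under 0.05 belonged to Bdnf, and they pointed in opposite directions. The 5′ exon probeset at 109517283 to 109517381 had a lowest, median and highest signal of 497, 689 and 827 in wildtype and of 709, 874 and 1028 in KIS-ko brains. The KIS-ko values were shifted upwards but overlapped with wildtype, with a log2 difference of 0.35 (standard error 0.148; limma, adjusted p = 0.751) and 4 of 6 litters higher. The last-exon probeset at 109564204 to 109564303 went from 69.0, 96.4 and 129 in wildtype to 45.5, 80.1 and 99.1 in KIS-ko brains. Its log2 difference was -0.37 (standard error 0.112; limma, adjusted p = 0.741), with 5 of 6 litters lower and a signal below the control median. None of the 126 member probesets was called at the adjusted threshold, against 0.00487% of all probesets, and 2 of 126 at the unadjusted one compares with 6.63% of all probesets.

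**Figure D2:**
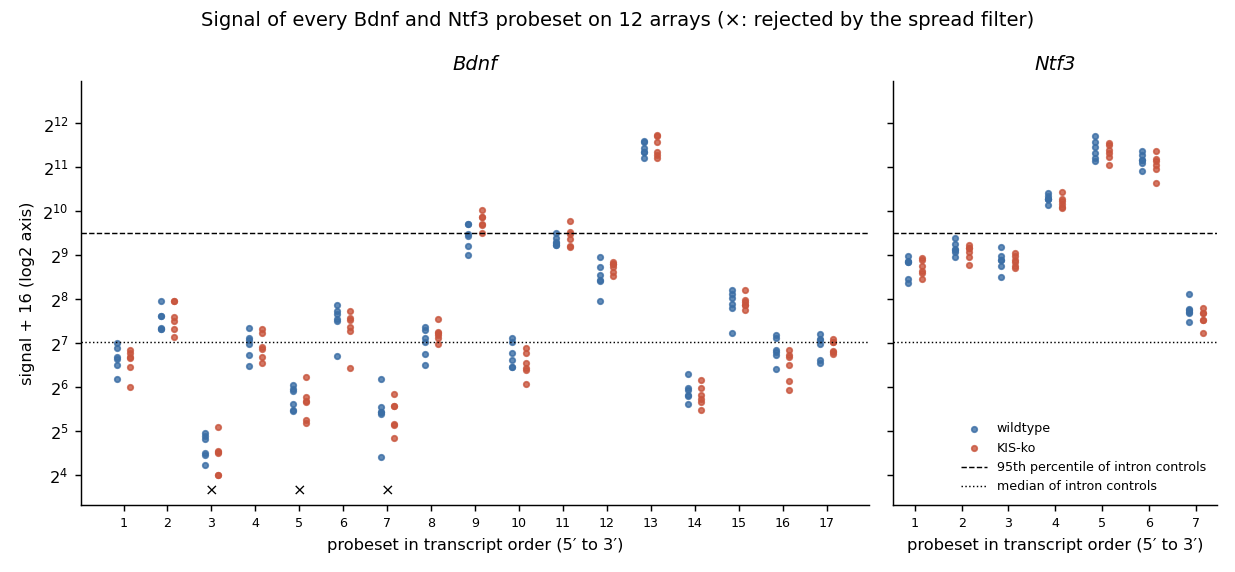
Signal + 16 (log2 axis) of each Bdnf (left) and Ntf3 (right) probeset in transcript order on 6 wildtype (blue) and 6 KIS-ko arrays (red), with the median (dotted) and 95th percentile (dashed) of the intron controls. Bdnf has 2 of 17 probesets above the dashed line by their mean and 3 rejected ones (crosses), and Ntf3 has 3 of 7 above it.

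Ntf3, which encodes neurotrophin-3, was lower in the KIS-ko brain of every litter, but only in the deposited scaling. Its lowest, median and highest gene values were 9.39, 9.65 and 9.81 in wildtype and 9.35, 9.57 and 9.67 in KIS-ko. The ranges overlapped in part, with 3 of the 6 wildtype values above the highest KIS-ko value, and litter 5 was lowest and litter 6 highest in both genotypes. Within litters the difference was -0.063, -0.161, -0.040, -0.0042, -0.036 and -0.146 in litters 1 to 6, with a mean of -0.075 (standard error 0.0461; limma, adjusted p = 0.685). The exact two-sided sign-flip permutation test over 6 litters gave p = 0.031, the smallest it can give and not adjusted for the 6 genes tested in this way; for the other members it gave 0.2188 to 0.9688. Of all genes, 1.6% were lower in all 6 litters. The medians of the arrays themselves differed within these litters by -0.074, -0.135, -0.026, 0.101, -0.040 and -0.171. After centring, Ntf3 differed by -0.019 ± 0.0445 (SD, n = 6 litters) with 3 of 6 litters lower (p = 0.4375 by the exact permutation test). After a second quantile normalization it differed by -0.032 ± 0.0357 and was lower in 5 of 6 (p = 0.09375, same exact permutation test).

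The 7 Ntf3 probesets lie on the minus strand of chromosome 6 between 126051462 and 126114929. Of these, 6 were lower and 1 was higher in KIS-ko, with differences between -0.176 and 0.0053. The lowest difference was that of the last probeset, at 126051462 to 126051595, whose lowest, median and highest signals were 164, 196 and 262 in wildtype and 135, 178 and 208 in KIS-ko brains (limma, adjusted p = 0.757). The 2 brightest, at 126051786 to 126051813 and at 126051750 to 126051779, had wildtype signals of 2722 ± 409 and 2299 ± 248 and KIS-ko signals of 2609 ± 326 and 2143 ± 347 (SD, n = 6 each). For each of them the genotype means differed by less than the SD over brains.

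Ntrk2, the gene of the BDNF receptor TrkB, was detected above the 95th percentile of the controls by all but 1 of its probesets, the exception being that at 58973104 to 58973130 with a mean signal of 354. Its lowest, median and highest gene values were 11.92, 12.02 and 12.09 in wildtype and 11.79, 11.92 and 12.09 in KIS-ko. The KIS-ko values reached lower but were not separate, and 4 of 6 litters were lower. The difference was -0.068 (standard error 0.0551, 95% confidence interval -0.19 to 0.054, adjusted p = 0.7 from limma), and it was -0.011 after centring. Of its 17 probesets 14 were lower and 3 higher, and the lowest unadjusted p was 0.159. The astrocyte and radial glia list (8 of 8 genes measured, none at 0, mean value 10.93 to 11.18 in wildtype and 10.87 to 11.08 in KIS-ko) was lower in 5 of 6 litters, with a mean of -0.106 ± 0.121 (SD, n = 6 litters). Its litter differences were -0.116, -0.226, 0.032, -0.010, -0.044 and -0.271, beside -0.113, -0.091, 0.060, 0.105, -0.191 and -0.179 for Ntrk2. The neuron list was lower in 4 of 6 litters, with a mean of -0.037 ± 0.0944 (SD, n = 6 litters) and litter differences of -0.049, -0.115, 0.029, 0.11, -0.051 and -0.147. These values hold the array shifts given above for Ntf3, and after centring the astrocyte list differed by -0.057 ± 0.0662 and the neuron list by 0.020 ± 0.0215 (SD, n = 6 litters). By litter, the centred differences of Ntrk2 were -0.039, 0.043, 0.086, 0.0046, -0.152 and -0.0092. Those of the astrocyte list were -0.050, -0.108, 0.054, -0.105, -0.017 and -0.113, and those of the neuron list 0.025, 0.020, 0.054, 0.010, -0.012 and 0.023. Radial glia and astrocytes are known to make much of the truncated TrkB. The part of either list in the Ntrk2 values was not tested, and in whole brain fewer cells of a type and less RNA per cell cannot be told apart.

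The Ntrk2 probesets analysed run along chromosome 13 from 58909750 to 59033917 and end with the exons of the truncated form. Exons of the TrkB kinase domain further 3′ were not analysed here, so truncated exons could be set only against exons that all forms share. The 3 truncated-end probesets, at 59033394 to 59033917, had wildtype signals of 1211 ± 95.9, 4432 ± 198 and 1052 ± 207 and KIS-ko signals of 1103 ± 201, 4371 ± 370 and 890 ± 188 (SD, n = 6 each). All 3 were above the 95th percentile of the controls in both genotypes, and their means were lower in KIS-ko. By litter, the truncated end differed by -0.145, -0.15, -0.0038, 0.266, -0.28 and -0.509, and the 14 shared probesets by -0.106, -0.078, 0.074, 0.070, -0.172 and -0.109. The truncated end, a mean of 3 probesets, moved more widely than the mean of the 14 shared ones, in both directions. Its brightest probeset ranged over litters only from -0.13 to 0.089, and the dimmer ones from -0.515 to 0.237 and from -0.894 to 0.531. The dimmest shared probeset ranged from -0.919 to 0.903. The difference between them, truncated minus shared, was -0.083 ± 0.191 (SD, n = 6 litters), and 5 of 6 litters were lower (p = 0.4062 by the exact sign-flip permutation test, adjusted p = 0.406 over 3 such contrasts). A simpler contrast, the 5 probesets nearest the 3′ end minus the 5 nearest the 5′ end, gave -0.050 ± 0.132 (same exact permutation test, p = 0.4375, adjusted p = 0.844 over 3 contrasts).

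Ntrk3, the gene of the neurotrophin-3 receptor TrkC, showed no called difference in its gene value. Its lowest, median and highest values were 10.35, 10.49 and 10.54 in wildtype and 10.29, 10.52 and 10.55 in KIS-ko. Both low values came from litter 5, and the other brains lay close together. The difference was 0.0093 (standard error 0.0447, 95% confidence interval -0.0899 to 0.109, adjusted p = 0.942 from limma), with 4 of 6 litters higher, and it was 0.065 after centring, 0.038 after a second quantile normalization and 0.095 with medians over probesets. Of its 23 probesets, 7 were lower and 16 higher, and the differences lay between -0.127 and 0.126. The 2 probesets at 85595667 to 85595741 and 85594689 to 85595297, which the table assigns to a separate cDNA, had mean signals of 51.4 and 125 in wildtype and were brighter than 24.5% and 52.7% of the intron controls.

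Ntrk3 holds exons of both ends, on the minus strand of chromosome 7. The truncated form is listed for 2 probesets, at 85449216 to 85449295 and at 85447521 to 85447618, and 5 probesets further 3′, from 85405288 down to 85337480, belong to the kinase form. The first truncated-end probeset had a signal of 683 ± 76.6 in wildtype and 624 ± 68.3 in KIS-ko, and the second 4463 ± 220 and 4325 ± 313 (SD, n = 6 each). Both were lower in KIS-ko by less than the SD over wildtype brains. In the kinase part, the probeset at 85392048 to 85392209 was higher in the KIS-ko brain of 6 of 6 litters, with a lowest, median and highest signal of 1956, 2348 and 2520 in wildtype and of 2087, 2535 and 2652 in KIS-ko (log2 difference 0.10; limma, adjusted p = 0.767). All 5 kinase-part probesets had a higher mean in KIS-ko, by 0.0086 to 0.126.

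**Figure D3:**
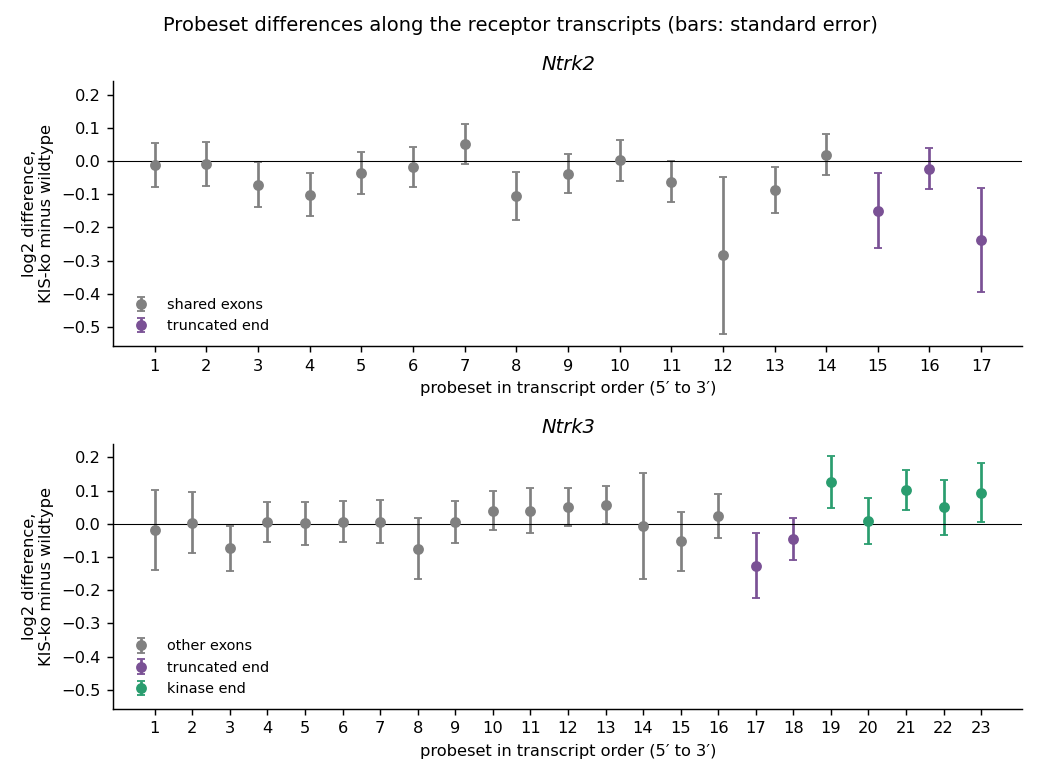
Log2 difference, KIS-ko minus wildtype (points; bars are limma standard errors), of each Ntrk2 (top) and Ntrk3 (bottom) probeset in transcript order. The 3 truncated-end probesets of Ntrk2 and the 2 of Ntrk3 (purple) lie below 0, and the 5 kinase-end probesets of Ntrk3 (green) lie above 0. The Ntrk2 truncated end ranges from -0.238 to -0.023, that of Ntrk3 from -0.127 to -0.047, and the kinase end from 0.0086 to 0.126.

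Set against each other, the kinase end of Ntrk3 was higher relative to its truncated end in the KIS-ko brain of each litter. The contrast, kinase minus truncated, lay between -0.583 and -0.377 in wildtype, with a median of -0.492, and between -0.444 and -0.179 in KIS-ko, with a median of -0.335 (only its change between brains can be read, since the 2 ends have different probes). The KIS-ko values were shifted upwards and the groups overlapped. Within litters it changed by 0.024, 0.382, 0.099, 0.063, 0.277 and 0.132, with a mean of 0.163 ± 0.138 (SD, n = 6 litters). The exact sign-flip permutation test gave p = 0.031, the smallest it can give, and 0.0938 after adjustment over the contrasts of the 3 genes. The truncated end contributed -0.087 ± 0.16 and the kinase end 0.076 ± 0.131, neither in one direction throughout. This contrast was chosen after the values were seen. The simpler contrast of the 7 probesets nearest the 3′ end minus the 7 nearest the 5′ end gave 0.039 ± 0.157, higher in 2 of 6 litters (same exact permutation test, p = 0.5625, adjusted p = 0.844). Among all genes with at least 6 probesets, 3.36% had such a contrast of the 3′ minus the 5′ end that went one way in all 6 litters.

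The Ntrk3 contrast depended on a few settings. Without the dim probesets, which leaves out the first of the 2 truncated-end probesets, it was 0.123 ± 0.157 (p = 0.2188 by the exact sign-flip permutation test), and with medians over probesets it was 0.0958 ± 0.112 (p = 0.09375, same exact permutation test). Without the pairing by litter an exact permutation test of 6 against 6 brains gave p = 0.006494, or 0.01948 after adjustment over the 3 contrasts. That test sets the littermate design aside. The contrast was chosen after the values were seen, which the adjustment does not count. Over 12779 genes the median change of the 3′ minus the 5′ end was -0.0096, -0.020, 0.0026, 0.034, -0.046 and -0.054 in litters 1 to 6. Its part in the Ntrk3 contrast was not tested.

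**Figure D4:**
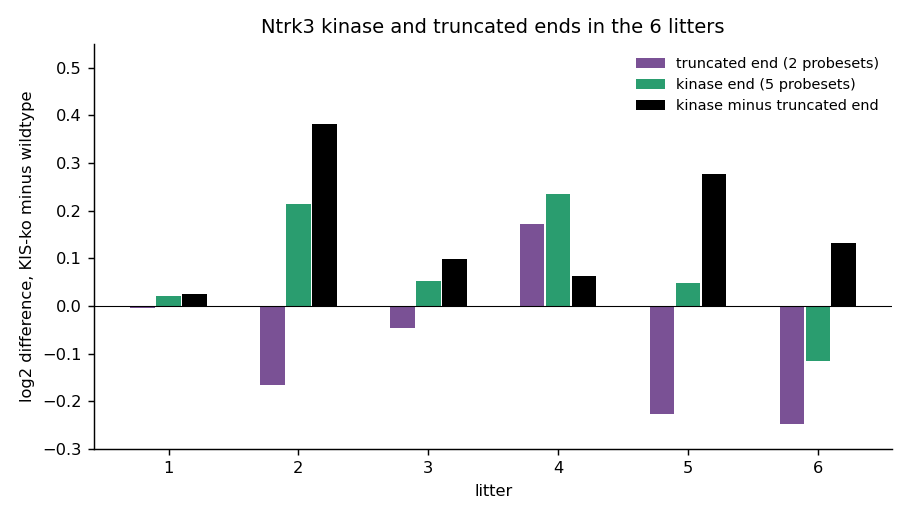
Log2 difference, KIS-ko minus wildtype (vertical axis), of the truncated end, the kinase end and kinase minus truncated end of Ntrk3 in each of the 6 litters (1 pair of brains each, hence no error bars). The black bars are above 0 in all 6 litters, from 0.024 in litter 1 to 0.382 in litter 2, while the coloured bars point both ways.

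For Bdnf the matching contrast, last exon minus 5′ exons, changed by -0.138 ± 0.361 (SD, n = 6 litters; p = 0.3438 by the exact sign-flip permutation test, adjusted p = 0.406). It lay between -1.1 and -0.238 in wildtype and between -1.04 and -0.679 in KIS-ko. The KIS-ko values lay within the wildtype range, and 4 of 6 litters were lower. Its spread over litters was wider than that of either receptor contrast, and 2 of its 3 last-exon probesets were below the control median. The 4 probesets nearest each end of Bdnf gave -0.043 ± 0.367 (same exact permutation test, p = 0.8438, adjusted p = 0.844).

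Ngfr, the gene of the p75 receptor, lies on the minus strand of chromosome 11 with probesets between 95430182 and 95448872. Its lowest, median and highest gene values were 9.66, 9.75 and 9.81 in wildtype and 9.54, 9.70 and 9.84 in KIS-ko, and the wildtype values lay within the KIS-ko range. The difference was -0.034 (standard error 0.0545, 95% confidence interval -0.155 to 0.0869, adjusted p = 0.817 from limma), with 3 litters lower and 3 higher, and its sign turned to 0.022 after centring. Litter 2 was lowest, at -0.249, and without it the difference was 0.0090. Of the 9 probesets 7 were lower and 2 higher, with the lowest unadjusted p at 0.157. The last probeset, in the 3′ part of the gene at 95430182 to 95431919, had signals of 1652 ± 197 and 1588 ± 185 (SD, n = 6 each).

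Sort1 encodes sortilin, which also directs the intracellular transport of BDNF. Its lowest, median and highest gene values were 10.69, 10.89 and 10.94 in wildtype and 10.70, 10.90 and 10.99 in KIS-ko. The groups overlapped over nearly their whole range, and litter 5 held the lowest value of both. The difference was 0.016 (standard error 0.0463, 95% confidence interval -0.0864 to 0.119, adjusted p = 0.898 from limma), with 4 of 6 litters higher, and 0.073 after centring. Of the 56 kept probesets 39 were higher and 17 lower, and the lowest unadjusted p was 0.0542.

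The table lists Sort1 a second time. Differences between the copies cover only variation within an array, and whether their probes are distinct was not tested. It names 2 transcript clusters with probesets at the same 29 positions of chromosome 3, between 108087134 and 108164403, and marks all 58 probesets as matching more than 1 place. At no position were the values of the copies identical. Over the 12 arrays, the copies of a position correlated with a median Pearson r of 0.844 (0.643 to 0.967); the copies on an array share the RNA of that brain, and this is a description. Their difference had a median SD of 0.0753, against 0.137 and 0.141 for a copy itself over the arrays. For the gene value, the SD of the difference between copies was 0.0177, while the value itself varied over brains with an SD of 0.104 and 0.0971. The copies gave genotype differences of 0.0080 ± 0.0697 and 0.025 ± 0.0632 (SD, n = 6 litters), and no litter differed between them by more than 0.0362. Of 28 positions kept in both, 15 were higher in both copies, 4 lower in both and 9 had opposite signs.

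**Figure D5:**
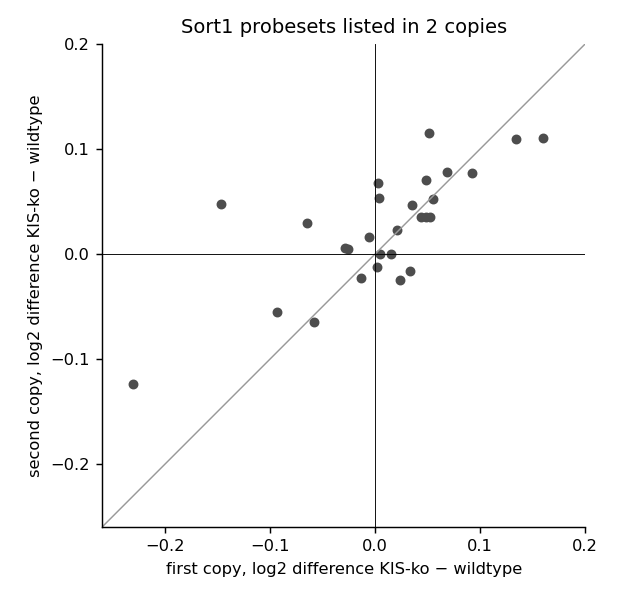
Log2 difference, KIS-ko minus wildtype, of the 28 Sort1 positions kept in both listed copies, with the first copy on the horizontal and the second on the vertical axis (the grey line marks equality). The 9 positions off the shared-sign quadrants lie mostly near 0, and no position exceeds 0.16 upwards.

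The measure of the study's methods, a mean over probesets of the litter ratios of signal weighted by the inverse of their relative SD, gave changes of a few percent. The fold change, KIS-ko over wildtype, was 1.05 ± 0.083 for Bdnf, 0.95 ± 0.0287 for Ntf3 and 0.98 ± 0.0473 for Ntrk2 (SD, n = 6 litters). It was 1.02 ± 0.0192 for Ntrk3, 0.985 ± 0.059 for Ngfr and 1.02 ± 0.0276 for Sort1 (SD, n = 6 litters). None of the members reached a change of 6% here, the limit used in the study, which 26.4% of all genes passed in this computation. With centred arrays the fold change of Bdnf was 1.08, and that of Ntrk3 and of Sort1 1.06. With ratios of the genotype means in place of the litter ratios, that of Bdnf was 1.01.

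No other ligand or receptor described here was called either. Ntf5, a further ligand of TrkB, had gene values of 7.09 ± 0.0914 in wildtype and 7.21 ± 0.127 in KIS-ko (SD, n = 6 each), near the value of a control probeset of median signal, 7.03. The genotypes had a difference of 0.126 that was not called (adjusted p = 0.685 from limma). Of the sortilin relatives, Sorcs1 differed by -0.093, Sorcs2 by -0.042, Sorcs3 by -0.028 and Sorl1 by -0.053. Of the p75 partners in the membrane, Lingo1 differed by -0.060, Rtn4r by -0.056 and Nradd, a p75 homologue, by 0.045. The adjusted p of these 7 genes lay between 0.685 and 0.855 (limma), and after centring Sorcs2 (0.015), Sorcs3 (0.028) and Sorl1 (0.0037) had the opposite sign.

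Over 92 measured genes of the pathway (of 100 listed), 72 were lower and 20 higher, none was called at the adjusted threshold, and 1 passed the unadjusted one. Their median difference was -0.040, against -0.036 for all genes. With centred arrays 34 of the 92 were lower and the median was 0.016 (0.018 for all genes), and with arrays quantile-normalized again 48 were lower. Of all genes, 69.8% were lower in the deposited scaling, 38.7% with centred arrays and 48.6% with re-normalized arrays. Of 38 Trk adaptors and cascade kinases measured, 34 were lower in the deposited scaling (89.5%), 15 with centred arrays (39.5%) and 24 with re-normalized arrays (63.2%). Of 8 genes of precursor processing, 8 were lower in the deposited scaling (median -0.080), 6 with centred arrays (median -0.023) and 7 with re-normalized arrays. Of 13 p75 partners 11 were lower, 6 with centred and 7 with re-normalized arrays. Of 18 targets and feedback genes 10 were lower (median -0.0060), 2 with centred arrays (median 0.048) and 4 with re-normalized arrays. The one gene at the unadjusted threshold was Rest, a repressor of neuronal genes, with values of 8.65 ± 0.0683 in wildtype (SD, n = 6) and a difference of -0.15 (limma, adjusted p = 0.685). The next lowest p were those of the adaptor Crk at -0.098, Ntf5 at 0.126 (higher, described above), carboxypeptidase E (Cpe) at -0.099, the BDNF transport protein Hap1 at -0.096 and the adaptors Shc2 and Shc1 at -0.116 and -0.104, each with an adjusted p of 0.685 from limma. Apart from Ntf5, all of these were below 0 also with centred and with re-normalized arrays.

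Among the members themselves, the gene values centred on the array medians correlated with a Pearson r between -0.36 (Ntf3 and Ntrk2) and 0.753 (Ntrk3 and Sort1) over the 12 arrays. These are descriptions over brains that share litters. Of 13804 genes with at least 5 kept probesets, those most like each member over the 12 centred arrays were Fam170a and Cdkn2b for Bdnf (Pearson r of 0.972 and 0.951), Arhgap24 and Zfp663 for Ntf3 (0.938 and 0.909) and Cltc and Fut8 for Ntrk2 (0.913 and 0.86). For Ntrk3 they were Col11a1 and Ylpm1 (0.922 and 0.917), for Ngfr Igfbp4 and Tspan15 (0.867 and 0.853) and for Sort1 Igf1r and Akap9 (0.945 and 0.914). The Spearman correlations of these pairs lay between 0.776 (Sort1 and Akap9) and 0.972 (Bdnf and Fam170a). The highest of so many values is high by selection, and the part of the centring in them was not tested.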

How the data were processed

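Total RNA of 12 newborn brains, 6 per genotype, was measured on 1 exon array each. The authors processed the arrays with the Affymetrix Expression Console, with quantile normalization at the exon level and PLIER, and deposited for each probeset the linear intensity (PLIER signal). The build of the table's positions is not given in the sources used here. Positions of start sites are those of GRCm38.p6 (RefSeq). Gene symbols are those the authors deposited, and 0 columns of samples outside the series were present.

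Groups and litters come from the labels. The main probesets with a symbol and a relative standard deviation up to 0.4 in both genotypes were used. Gene values, means of log2(signal + 16), and single probesets entered limma 3.58.1 (R 4.3.3) with the litter as a block, at an adjusted p of 0.05. Changes of dim genes are understated by the added 16. Single contrasts were tested by the exact two-sided sign-flip permutation test over 6 litters. The pairing is that of littermates. The correlations of their deviations from the genotype means were 0.272, -0.059, 0.136, -0.106, 0.473 and -0.114. The scripts were tested on simulated data. Plots were drawn with matplotlib 3.10.9 in Python 3.11.15 (pandas 2.3.3).

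Named are all members, ligands and receptors of the pathway list (some items are not reported here), pathway genes called or among the 6 lowest p otherwise, and for each member the 2 genes of highest correlation. The members and lists were chosen with earlier results of these data known. Marker lists for other cell types (oligodendrocyte lineage, microglia, endothelium, pericytes, meninges, choroid plexus, erythroid cells, sensory ganglia and pituitary) differed between genotypes by -0.048 to 0.011. In the pathway lists 8 genes were not matched and were not analysed here. The alternatives were no litter block, pseudocounts of 1 and 64, no filter or a relative SD limit of 0.2, dim probesets left out, probesets matching 1 place only, arrays centred or quantile-normalized again, medians over probesets, moderation with trend and robust, other parts for the contrasts, other forms of the fold change, and each litter left out. Contrasts by listed transcript and the separate Sort1 copies were added after the data were seen.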

Additional observations from a re-analysis of the deposited data

Results flagged for a closer look

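Of 24 groups of 6 values searched for a brain far from the others, 1 stood out. The critical value used is a 95% one, so chance flags about 1 in 20 such groups. The gene value of Ntrk3 in the KIS-ko brain of litter 5 was 10.29, and its nearest neighbour among the KIS-ko brains was 10.49, a gap of 0.749 of the group's range. The wildtype littermate was also the lowest of its genotype.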

How the results depend on the processing

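The counts of called members, member probesets and pathway genes were 0 (limma) under every alternative run. At an unadjusted p of 0.05 the alternatives gave 0 to 1 members, 1 to 7 member probesets and 0 to 15 pathway genes. The 15 (16.3%) came without litter 4, where 23.3% of all genes passed, and the 7 probesets (5.51%) with centred arrays, where 6.27% of all probesets passed. The replicate block (litter) changed no call of a gene, a probeset or a contrast of the 3′ minus the 5′ end. It did change that of the added Ntrk3 contrast by transcript (0.163), which crossed the threshold only without the block. The signs of values near 0 were not stable, and the cause was not tested. Bdnf went to -0.0068 with a pseudocount of 1, -0.019 without the SD filter and -0.038 with medians over probesets. Ngfr went to 0.022 with centred and 0.013 with re-normalized arrays, and Sort1 to -0.032 with medians. Large moves without a change of sign were Bdnf at 0.204 without dim probesets and 0.17 with the SD limit of 0.2, Ngfr at -0.127 and Ntrk3 at 0.095 with medians. The contrast of the 3′ minus the 5′ end of Bdnf was 0.0019 without the SD filter, 0.0019 with centred and 0.00048 with re-normalized arrays, but -0.298 with the SD limit of 0.2 and -0.178 with probesets matching 1 place only, and that of Ntrk2 0.012 with medians. With centred arrays the fold change was 1.08 for Bdnf, 0.986 for Ntf3, 1.06 for Ntrk3 and 1.06 for Sort1, and that of Sort1 was 1.09 without the SD filter. That of Bdnf was 1.03 to 1.09 with 1 litter left out, the highest without litter 5. With 1 litter left out, gene differences spanned -0.028 to 0.041 (Bdnf, lower than 0 without litter 1, 2, 3 or 6), -0.061 to 0.0090 (Ngfr), -0.000051 to 0.023 (Ntrk3), 0.0002 to 0.038 (Sort1), -0.089 to -0.058 (Ntf3) and -0.103 to -0.031 (Ntrk2). The contrasts of ends spanned -0.069 to 0.055 (Bdnf), -0.0067 to 0.075 (Ntrk3) and -0.090 to -0.0073 (Ntrk2), and those by transcript -0.249 to -0.054 (Bdnf, lowest without litter 4 and highest without litter 2), -0.139 to -0.039 (Ntrk2, lowest without litter 4 and highest without litter 6) and 0.119 to 0.191 (Ntrk3, p = 0.0625 each by the exact sign-flip permutation test, the smallest that 5 litters allow). Sort1 has no value with probesets matching 1 place only, and no Bdnf contrast has a value without dim probesets, nor the one by transcript with the SD limit of 0.2, where no last-exon probeset is left. With medians the Bdnf contrast by transcript was -0.015. Signal over background limits the Bdnf values.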
